A study of Mus musculus with 24 samples.

Results

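The brains of tumor-free mice that had received chemoradiotherapy and then extracellular vesicles (EVs) from either of 2 human neural stem cell lines, UCI-191 or Shef6, were compared gene by gene. The members were the 3 samples of the RT-TMZ + UCI-191 EV group and the 3 samples of the RT-TMZ + Shef6 EV group, chosen by their labels alone, which is 6 of the 24 samples of the series. All mice were male C57BL/6J, 27 weeks old at perfusion. Both groups shared cranial irradiation, given per the labels in 3 fractions of 9 Gy, and temozolomide (TMZ, a DNA-alkylating drug) at 25 mg/kg during radiotherapy and 66.7 mg/kg afterwards. They differed in the stem cell line whose EVs were injected into the retro-orbital vein, once a week and 4 times in all. The RT-TMZ + Veh group (n = 4) had the same chemoradiotherapy with vehicle, and the Control + Veh group (n = 4) had neither chemoradiotherapy nor EVs. A second set of mice carried CT2A, a mouse glioma cell line implanted in the brain, with RT-TMZ and either EV (n = 3 each).

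EVs are membrane-bound particles shed by cells that carry proteins, lipids and RNA of their source cell, and those of neural stem cells are studied as a cell-free treatment for the damage that radiation and chemotherapy do to the brain. In the irradiated brain, microglia and astrocytes can take up an activated state with higher complement, antigen presentation and interferon response genes, while neurons can lose synaptic and activity-dependent gene expression. The panel used here measures genes of these programs. Expression was read with the nCounter Mouse Neuroinflammation panel, in which barcoded probes bind RNA molecules and the barcodes are counted without amplification. The values are log2 normalized counts of 757 probes, of which 703 carry a gene symbol, and the other 54 were tested but are not named. The samples are labelled as brain. According to the methods, hippocampus and prefrontal cortex were excised, while a figure legend of the study speaks of hippocampus alone, so which of them a given sample holds is not settled. In such bulk tissue fewer cells of a type and less RNA per cell cannot be told apart.

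In the 6 samples compared, the totals of counts that the low values imply lay between 1184341 (RT-TMZ + Shef6 EV replicate 3) and 1434603 (RT-TMZ + UCI-191 EV replicate 3). A level of 20 normalized counts (4.32 on the log2 scale) was used as background, and 74 to 92 genes of each of these samples were below it. The lowest value of each of these samples was shared by 21 to 51 genes. Markers of neurons, astrocytes, microglia, oligodendrocytes and endothelium were above background in both EV groups, and all 7 markers of T and NK cells were under it. The Shef6 EV samples were scattered, and replicate 3 lay nearer to the UCI-191 EV samples than to its own group. RT-TMZ + Shef6 EV replicate 3 correlated across the 757 genes at r = 0.993 to 0.997 with the 3 UCI-191 EV samples, but at 0.98 and 0.99 with replicates 1 and 2 of its own group (Pearson, a description with no test). Shef6 EV replicate 1 correlated at 0.979 to 0.982 with the UCI-191 EV samples and at 0.991 with replicate 2. Shef6 EV replicate 2 correlated at 0.989 to 0.992 with the UCI-191 EV samples, and at 0.991 and 0.990 with replicates 1 and 3. Among 687 genes above background, 173 spanned at least 0.5 on the log2 scale within the Shef6 EV group. Replicate 3 was the farthest sample in 102 of these, and in 91 of those 102 it lay within 0.2 of the range of the UCI-191 EV samples. Replicate 1 was the farthest in 52 of the 173 and replicate 2 in 19. For genes that passed only without Shef6 EV replicate 3, the main ones are given with and without it.

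No gene passed an adjusted p of 0.05 between the EV groups (limma, Benjamini-Hochberg over 757 genes, 0 of 757, or 0% in each direction), and the smallest adjusted p was 0.355. At an unadjusted p under 0.05, 59 genes (7.79% of those tested) were higher with UCI-191 EV and 24 (3.17%) were lower. The samples of the 2 groups did not overlap in 113 genes (14.9%), 80 of them (10.6%) higher and 33 (4.36%) lower with UCI-191 EV. The methods' t-test gave 27 higher and 13 lower genes at its unadjusted threshold and 1 after adjustment, Pros1. The balance of the directions depended on the scaling. The median of all genes in a sample was 8.39 to 8.45 in the UCI-191 EV group and 8.18 to 8.35 in the Shef6 EV group, a difference of 0.133 between the group means of these medians (exact two-sided permutation test, p = 0.1, the smallest that 3 against 3 allows). With each sample centred on its median, the median difference over all genes moved from 0.043 to -0.090 and the unadjusted calls turned to 16 higher and 83 lower. Differences and overlaps below are on the deposited scale, on which the sample medians of the 2 groups did not overlap either. With Shef6 EV replicate 3 left out, which set 3 samples against 2, the adjusted threshold was passed by 103 genes (13.6%), of which 49 (6.47%) were higher and 54 (7.13%) lower with UCI-191 EV. Without any other of the 6 samples, no gene passed. Replicate 3 was singled out from these same values because it lay near the UCI-191 EV samples. Leaving out such a sample tends to widen the gap between the groups. The adjusted p values given below without it therefore describe this layout and are not a test of the EVs.

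**Figure D1:**
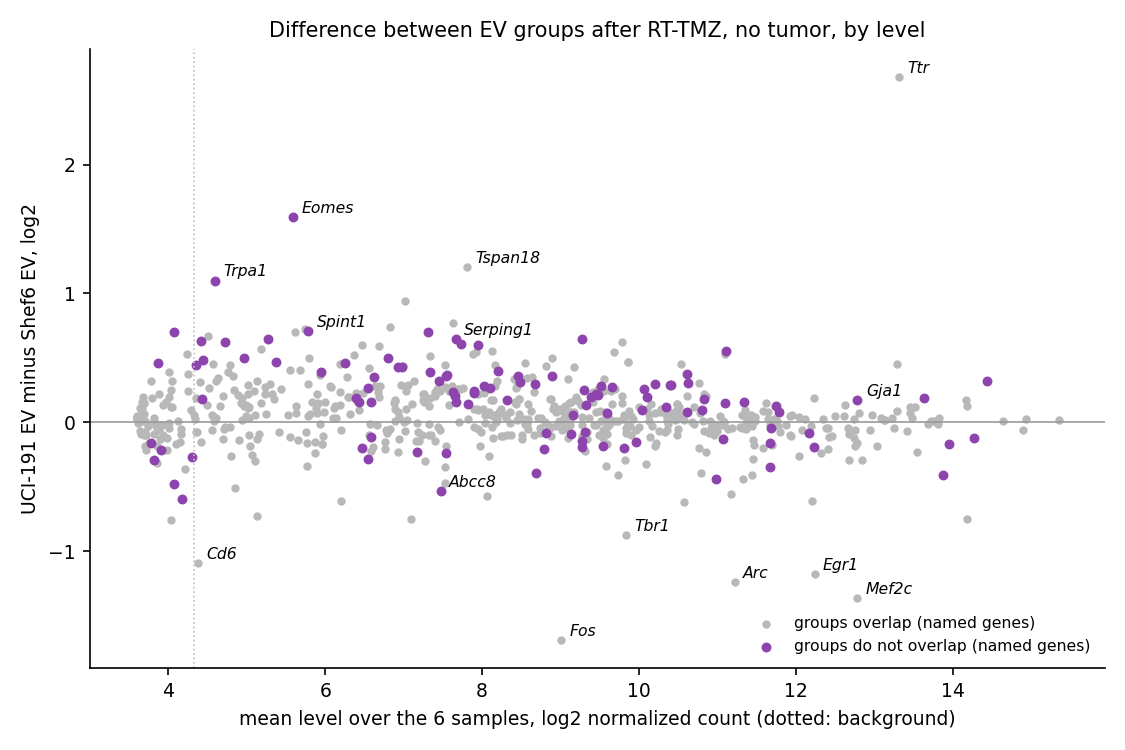
Difference between the EV groups (log2, y axis) against the mean level over the 6 samples (log2 normalized count, x axis), 1 point per named gene, with genes whose groups did not overlap in purple and the background level dotted. Eomes (1.59) and Trpa1 (1.10) stand highest among the genes without overlap, while Ttr (2.68) and Fos (-1.69) have larger differences in groups that overlap.

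Of the 10 genes with the smallest p values, 9 lay higher with UCI-191 EV. Beside them, 62.1% of all genes and 71.1% of those at an unadjusted p under 0.05 (limma) were higher. Several of the 10 are genes of myeloid cells, and whether this exceeds their share of the panel was not tested. Trpa1, which encodes a cation channel opened by irritants and oxidants, measured 4.97, 5.48 and 4.97 with UCI-191 EV and 3.84, 4.25 and 4.03 with Shef6 EV. All 3 Shef6 EV samples lay under background, all 3 UCI-191 EV samples lay above it, and the RT-TMZ + Veh mean was 4.66 ± 0.67 (SD, n = 4). The difference was 1.10 ± 0.19 (SE, adjusted p = 0.355), measured in part below background. Pros1, which encodes the anticoagulant protein S and a ligand of the phagocytic receptor Mertk, measured 8.64, 8.65 and 8.61 against 8.26, 8.27 and 8.3. The groups were tight and separate, with RT-TMZ + Veh at 8.51 ± 0.21 (SD, n = 4) and Control + Veh at 7.93 ± 0.26 (SD, n = 4). The difference was 0.36 ± 0.07 (SE, adjusted p = 0.355), and 0.37 without Shef6 EV replicate 3 (adjusted p = 0.0278).

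Ctss, which encodes the lysosomal protease cathepsin S, measured 10.48, 10.62 and 10.57 with UCI-191 EV and 10.20, 10.30 and 10.30 with Shef6 EV. Tyrobp, the signaling adaptor of Trem2 and related microglial receptors, measured 10.22, 10.20 and 10.16 against 9.86 and 9.94 in Shef6 EV replicates 1 and 2, and 10 in replicate 3. For both genes every UCI-191 EV sample lay above every Shef6 EV sample, and the means of RT-TMZ + Veh, 10.62 for Ctss and 10.29 for Tyrobp, lay nearer the UCI-191 EV values. The differences were 0.29 ± 0.06 (SE, adjusted p = 0.355) and 0.26 ± 0.06 (SE, adjusted p = 0.363). Slamf9, a receptor of the SLAM family on myeloid cells, was 0.46 ± 0.11 higher (SE, adjusted p = 0.363). Ptger4, a receptor for prostaglandin E2, was at 4.71 to 4.75 with UCI-191 EV and at 3.93 to 4.20, under background, with Shef6 EV.

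Serping1, which encodes the C1 inhibitor that restrains complement and the contact system, measured 7.96, 8.08 and 7.93 with UCI-191 EV and 7.27, 7.07 and 7.69 with Shef6 EV. The groups did not overlap, though Shef6 EV replicate 3 came closest to the UCI-191 EV samples. The difference was 0.65 ± 0.17 (SE, adjusted p = 0.429) and 0.82 without that replicate (adjusted p = 0.00782). Crip1, a small LIM-domain protein, was 0.36 higher, and Chek2, a kinase of the DNA damage checkpoint, was 0.64 higher, with adjusted p values of 0.355 and 0.363. Abcc8, a regulatory subunit of ATP-sensitive potassium channels, was the gene of this group that lay lower. It measured 7.32, 7.24 and 7.06 with UCI-191 EV and 7.85, 7.79 and 7.58 with Shef6 EV, a difference of -0.53 ± 0.12 (SE, adjusted p = 0.363). The UCI-191 EV samples of Abcc8 lay beside RT-TMZ + Veh (7.37 ± 0.16, SD, n = 4) and Control + Veh (7.38 ± 0.12, SD, n = 4), and the Shef6 EV samples lay above both.

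Several activity-dependent genes spread widely within the Shef6 EV group. Immediate early genes, the core of this list, are known to be switched on within minutes by synaptic activity. They respond in part through cyclic AMP response elements bound by CREB, and many of them encode transcription factors or synaptic proteins. The promoter windows of Fos and Homer1, the members of this list with differences of over 0.6 whose windows were at hand, are shown to let the levels be set beside their regulatory sequence. Each line gives the 250 bases before the start in RefSeq (GRCm38.p6), on the strand of the gene, with the CRE half-site TGACG, searched on both strands, in capitals. The Fos window lies at chr12:85473640-85473889 (+ strand) and the Homer1 window, from the first of 2 listed starts, at chr13:93303507-93303756 (+ strand).
Fos: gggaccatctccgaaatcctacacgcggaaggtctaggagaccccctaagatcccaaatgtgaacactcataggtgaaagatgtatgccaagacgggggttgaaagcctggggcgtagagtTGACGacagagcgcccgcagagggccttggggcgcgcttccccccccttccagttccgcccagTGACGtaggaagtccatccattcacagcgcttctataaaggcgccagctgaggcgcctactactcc
Homer1: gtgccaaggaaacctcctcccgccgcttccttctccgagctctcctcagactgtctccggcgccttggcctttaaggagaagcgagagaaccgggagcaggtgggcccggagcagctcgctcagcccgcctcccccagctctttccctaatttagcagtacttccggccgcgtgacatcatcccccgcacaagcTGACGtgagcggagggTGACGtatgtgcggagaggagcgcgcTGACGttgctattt
The half-site begins 129 and 66 bases before the start in Fos, and 56, 40 and 14 bases before it in Homer1. Of the 8 list members with a window among the 12 measured, 5 held it, beside 17.8% of all 32851 windows. A member counted when any of its windows matched, so genes are set beside single windows here. A match describes the letters and not a bound site.

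Fos, a subunit of the AP-1 transcription factor, measured 10.90, 11.03 and 7.63 with Shef6 EV and 7.41, 8.25 and 8.84 with UCI-191 EV. Shef6 EV replicates 1 and 2 lay above every sample of Control + Veh (9.89 to 10.44), while replicate 3 fell among the UCI-191 EV and RT-TMZ + Veh samples (7.52 to 8.97). The difference was -1.69 ± 0.94 (SE, adjusted p = 0.517) with all 6 samples and -2.80 without replicate 3 (adjusted p = 0.00644). Arc, a synaptic protein that governs the removal of AMPA receptors, had the same layout, at 12.38, 12.85 and 10.28 with Shef6 EV and 10.13, 10.70 and 10.97 with UCI-191 EV. Its difference was -1.24 ± 0.66 (SE, adjusted p = 0.499), and -2.02 without replicate 3 (adjusted p = 0.00575). Egr1, a zinc finger transcription factor, measured 13.36, 13.60 and 11.52 with Shef6 EV and 11.57, 11.53 and 11.84 with UCI-191 EV, a difference of -1.18 ± 0.53 (SE, adjusted p = 0.447) that became -1.83 without replicate 3 (adjusted p = 0.000696).

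Homer1, a scaffold of the postsynaptic density, measured 12.67, 12.88 and 11.99 with Shef6 EV and 11.80 to 11.99 with UCI-191 EV. Replicate 3 again sat at the top of the UCI-191 EV range, and the difference was -0.61 ± 0.22 (SE, adjusted p = 0.443), or -0.87 without that replicate (adjusted p = 0.00227). Jun, the partner of Fos in AP-1, ran the other way. It measured 10.43, 10.70 and 11.37 with Shef6 EV and 11.37, 11.44 and 11.28 with UCI-191 EV, and RT-TMZ + Veh lay at 11.34 ± 0.04 (SD, n = 4). The difference was 0.53 (adjusted p = 0.443), and 0.80 without Shef6 EV replicate 3 (adjusted p = 0.00362). Over the 12 measured genes of the list, 7 were lower and 5 higher with UCI-191 EV, none passed, and the median difference was -0.127 beside 0.043 over all genes. Without Shef6 EV replicate 3, 4 members passed as lower (Fos, Arc, Egr1 and Homer1) and 1 as higher (Jun), beside 7.13% and 6.47% of all genes.

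Genes of forebrain glutamatergic neurons formed the list with the lowest median. Of 13 measured members, 9 were lower with UCI-191 EV (beside 37.9% of all genes), 4 (30.8%, beside 14.9% of all genes) had groups that did not overlap, none passed, and the median difference was -0.350. Mef2c, a transcription factor of excitatory neurons that controls synapse number, measured 14.38, 14.10 and 11.91 with Shef6 EV and 11.90, 12.31 and 12.08 with UCI-191 EV. Shef6 EV replicates 1 and 2 lay above all samples of Control + Veh (12.17 to 12.91) and of RT-TMZ + Veh (11.90 to 12.79), and replicate 3 did not. The difference was -1.37 ± 0.62 (SE, adjusted p = 0.463), and -2.14 without replicate 3 (adjusted p = 0.000696). Tbr1, which specifies deep-layer cortical neurons, measured 10.86, 10.78 and 9.18 against 9.21, 9.64 and 9.35, a difference of -0.87 ± 0.45 (SE, adjusted p = 0.499), and -1.42 without replicate 3 (adjusted p = 0.00212).

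**Figure D2:**
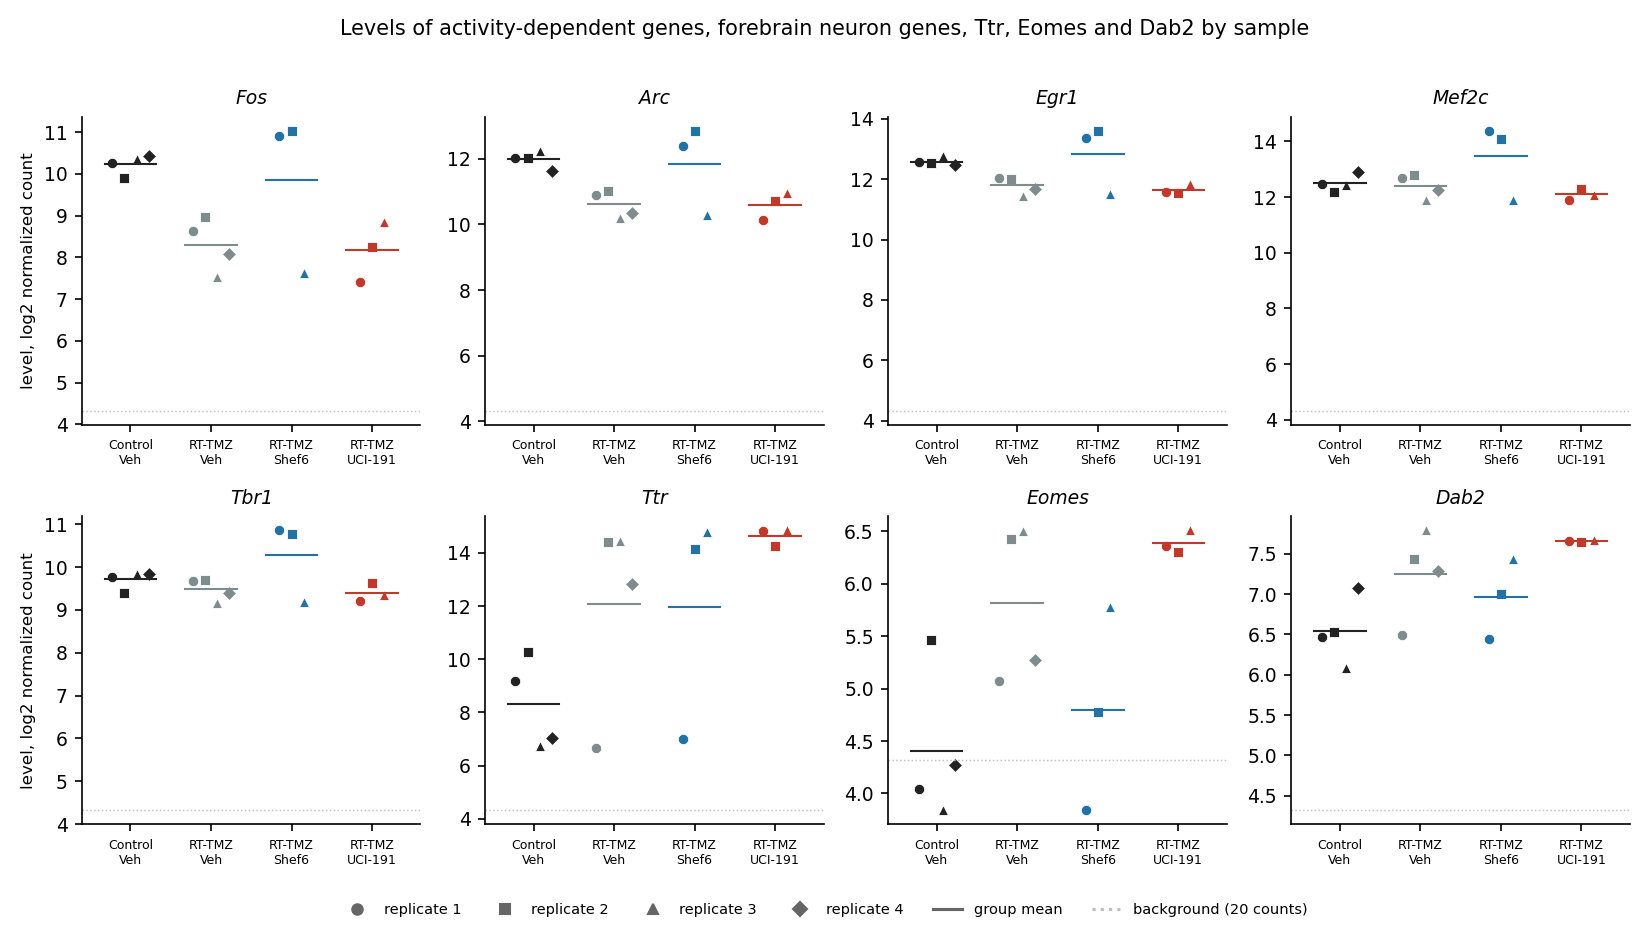
Level of 8 genes (log2 normalized count, y axis) in each sample of the tumor-free groups (x axis), with replicates as symbols, group means as lines and background dotted. Shef6 EV replicate 3 (blue triangle) lies with the UCI-191 EV samples for Fos, Arc, Egr1, Mef2c and Tbr1, while for Ttr and Eomes it is Shef6 EV replicate 1 (blue circle) that lies lowest.

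Other neuronal genes separated the groups fully, at smaller size. Nrgn, the calmodulin-binding protein neurogranin, measured 13.75, 13.65 and 13.62 with UCI-191 EV and 14.21, 14.23 and 13.80 with Shef6 EV, a difference of -0.41 ± 0.12 (SE, adjusted p = 0.443). Cx3cl1, the neuronal chemokine that signals to microglia, differed by -0.35 ± 0.11 (SE, adjusted p = 0.443), at 11.45 to 11.52 against 11.59 to 11.99. Lingo1, a neuronal inhibitor of myelination and axon growth, differed by -0.44, and Slc17a7, the vesicular glutamate transporter VGLUT1, by -0.17, both without overlap. Camk4, a calcium-dependent kinase upstream of CREB, differed by -0.62, and Clstn1, a synaptic calsyntenin, by -0.44, with Shef6 EV replicate 3 inside or at the edge of the UCI-191 EV range. Without Shef6 EV replicate 3, 7 of the 13 glutamatergic genes passed as lower with UCI-191 EV (Tbr1, Mef2c, Nrgn, Homer1, Camk4, Lingo1 and Cx3cl1), at adjusted p values of 0.000696 to 0.00240, beside 7.13% of all genes that passed as lower. E2f1, a cell cycle transcription factor outside this list, shared the layout, at 7.94, 7.91 and 6.55 with Shef6 EV and 6.63 to 6.76 with UCI-191 EV. Its difference was -0.75 (adjusted p = 0.497), and -1.21 without replicate 3 (adjusted p = 0.00227).

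The 6 forebrain glutamatergic markers (Tbr1, Mef2c, Slc17a7, Nrgn, Homer1 and Camk4) are among the genes described above. Their summed normalized counts therefore repeat those values and are no separate evidence. With UCI-191 EV the sums were 39303, 37918 and 37434, and with Shef6 EV they were 67835, 65815 and 40102 for replicates 1, 2 and 3. All 6 markers were above background. The 8 general neuronal markers include Nrgn and Slc17a7. Their sum ranged from 71985 to 75128 with UCI-191 EV and was 87272, 85899 and 76606 with Shef6 EV. Interneuron markers lay at 1162 to 1275 and 1086 to 1209 in the 2 groups. What part the share of neurons or the region taken had in these results was not tested. Among the 22 synapse and glutamate receptor genes, 12 were lower and 10 higher with UCI-191 EV, and the median difference was -0.070.

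The largest single difference belonged to Ttr, which encodes the thyroid hormone carrier transthyretin and is in the brain a marker of choroid plexus epithelium. It measured 14.84, 14.25 and 14.85 with UCI-191 EV and 6.99, 14.13 and 14.79 with Shef6 EV. Shef6 EV replicate 1 was the one low sample of the 6, so the difference of 2.68 ± 1.98 (SE, adjusted p = 0.570) rests on it. RT-TMZ + Veh held both kinds of value (6.67, 14.40, 14.43 and 12.84), and Control + Veh ranged from 6.72 to 10.27. It was the only choroid plexus marker fixed here, and the part that choroid plexus in the dissected tissue had in its level was not tested.

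Eomes, a T-box transcription factor of intermediate neuronal progenitors and of cytotoxic lymphocytes, had the largest difference among the named genes whose groups did not overlap. It measured 6.36, 6.30 and 6.51 with UCI-191 EV and 3.84, 4.78 and 5.78 with Shef6 EV. Shef6 EV replicate 1 lay under background. The difference was 1.59 ± 0.46 (SE, adjusted p = 0.443), and the T and NK cell markers of the same samples were all under background. Dab2, an endocytic adaptor of macrophages and epithelia, measured 7.66, 7.65 and 7.67 against 6.44, 7.0 and 7.44, a difference of 0.70 ± 0.24 (SE, adjusted p = 0.443). Spint1, an epithelial serine protease inhibitor, measured 6.26, 6.03 and 6.13 against 4.75, 5.68 and 5.86. In all 3 genes Shef6 EV replicate 1 was lowest and replicate 3 nearest to the UCI-191 EV samples.

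Further genes spread widely within the Shef6 EV group, and in all of them but Agt, where replicate 2 was lowest, replicate 1 was the lowest sample. Pla2g5, a secreted phospholipase A2, measured 5.05, 7.21 and 7.39 with Shef6 EV and 7.11 to 7.75 with UCI-191 EV. Prkcq, protein kinase C theta, measured 6.76, 8.08 and 8.11 with Shef6 EV, and Cdkn1c, the cell cycle inhibitor p57, 7.91, 8.95 and 9.08. Replicates 2 and 3 lay within or near the UCI-191 EV ranges of 7.76 to 8.47 for Prkcq and 8.96 to 9.39 for Cdkn1c. Tspan18, a tetraspanin of endothelium, measured 5.87, 7.02 and 8.73 with Shef6 EV against 8.24 to 8.60, and Agt, the astrocytic precursor of angiotensin, 7.14, 6.64 and 7.95 against 7.58 to 8.39. None of these 5 passed with all 6 samples, and Tspan18 (1.97, adjusted p = 0.0129) and Agt (1.12, adjusted p = 0.0395) passed without Shef6 EV replicate 3.

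Microglial and complement genes lay higher with UCI-191 EV by small amounts. Csf1r, the receptor on which microglia depend for survival, measured 9.44, 9.48 and 9.35 with UCI-191 EV and 9.04, 9.24 and 9.25 with Shef6 EV, a difference of 0.25 ± 0.08 (SE, adjusted p = 0.443). C1qa and C1qc, chains of the complement initiator C1q made by microglia, were 0.18 and 0.16 higher without overlap. With each sample centred on its median, C1qa was only 0.047 and C1qc 0.027 higher. C4a, a gene of the complement C4 family, measured 11.53, 11.41 and 11.20 against 10.56, 10.82 and 11.11. Its difference was 0.55 ± 0.15 (SE, adjusted p = 0.443) and 0.69 without Shef6 EV replicate 3 (adjusted p = 0.0131), and the Control + Veh mean was 9.68 ± 0.20 (SD, n = 4). Mpeg1, a pore-forming protein of macrophages, was 0.27 higher, Plcg2, a phospholipase downstream of Trem2, 0.32, Lilrb4a, an inhibitory immune receptor, 0.50, and Ccl4, a chemokine, 0.48, all without overlap and with adjusted p = 0.443 (for Ccl4 the Shef6 EV samples were under background). Slc2a5, the microglial fructose transporter, lay lower instead, at 6.34 to 6.48 against 6.61 to 6.78.

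By list, 16 of 18 disease-associated microglia genes were higher with UCI-191 EV (7 without overlap, or 38.9%), 9 of 10 complement genes (5 without overlap, or 50%) and 13 of 16 homeostatic microglia genes (3 without overlap in either direction, or 18.8%), beside 62.1% of all genes that were higher and 14.9% without overlap. Their median differences were 0.207, 0.153 and 0.083. With each sample centred on its median these became 0.073, 0.020 and -0.050, so the sign of the homeostatic list depended on the scaling. No member passed. The summed microglia markers were 6534, 6357 and 6008 with UCI-191 EV and 5337, 5662 and 6120 with Shef6 EV. Cd74, the invariant chain of MHC class II, measured 9.21, 9.79 and 9.78 against 8.52, 9.17 and 9.16, a difference of 0.64 ± 0.23 (SE, adjusted p = 0.443).

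Among astrocyte identity genes, 10 of 16 were higher with UCI-191 EV and 6 lower (beside 62.1% and 37.9% of all genes), and none passed. The median difference of 0.062 turned to -0.072 with each sample centred on its median. Its members with the smallest p values were Slc1a3, Sox9 and Gja1. Slc1a3, the glutamate transporter GLAST, measured 13.72, 13.71 and 13.73 with UCI-191 EV and 13.49, 13.51 and 13.60 with Shef6 EV, a difference of 0.19 ± 0.05 (SE, adjusted p = 0.429). Gja1, the gap junction protein connexin 43, was 0.17 higher and Sox9, a transcription factor of astrocyte identity, 0.30 higher, both without overlap. With each sample centred on its median, Slc1a3 was 0.053, Gja1 0.04 and Sox9 0.17 higher. Vim, the intermediate filament vimentin, measured 10.89, 10.87 and 10.65 against 10.23, 10.44 and 10.62, and Osmr, the oncostatin M receptor, 7.63, 7.84 and 7.73 against 7.19, 7.32 and 7.58. In both, Shef6 EV replicate 3 lay next to the lowest UCI-191 EV sample. Of 27 measured reactive astrocyte genes, 25 were higher with UCI-191 EV (beside 62.1% of all genes), 7 (25.9%, beside 14.9%) did not overlap, and the median difference was 0.323, or 0.190 with each sample centred on its median. None passed, and without Shef6 EV replicate 3, 9 passed as higher and 1 as lower, beside 6.47% and 7.13% of all genes. The summed astrocyte markers were 26005 to 26168 with UCI-191 EV and 22790, 23376 and 24314 with Shef6 EV, and their part in these differences was not tested.

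**Figure D3:**
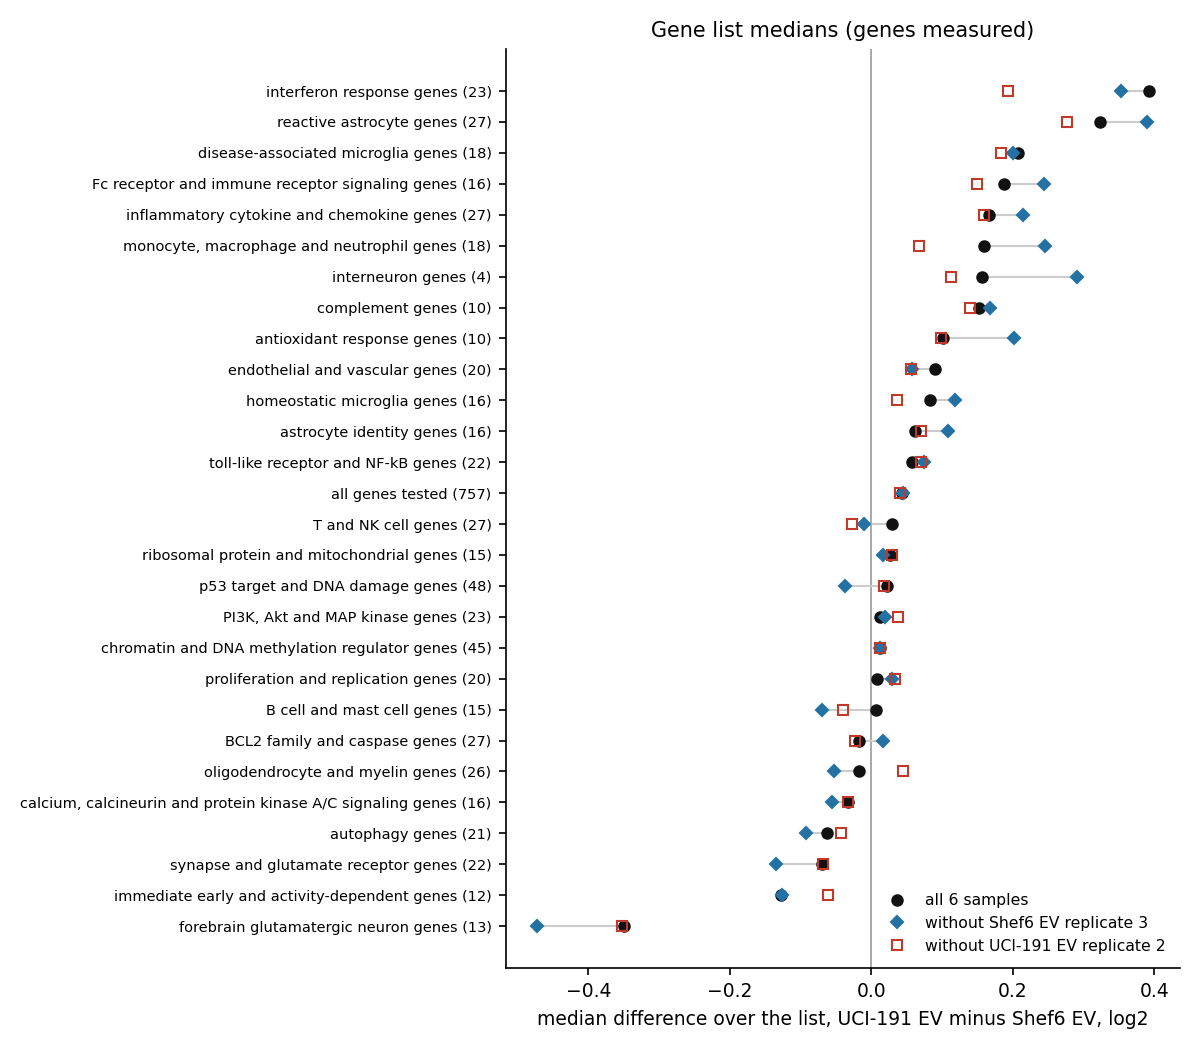
Median difference over each of 27 gene lists and over all genes (UCI-191 EV minus Shef6 EV, log2, x axis; number of measured genes in brackets), with all 6 samples, without Shef6 EV replicate 3 and without UCI-191 EV replicate 2. Interferon response and reactive astrocyte genes lie at the high end and forebrain glutamatergic neuron genes at -0.350 at the low end, and leaving out UCI-191 EV replicate 2 moves the interferon list from 0.393 to 0.193.

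The interferon response list had the highest median, and for several of its genes the difference rested on a single sample. Type I and II interferons switch these genes on through STAT and IRF factors, which bind the interferon-stimulated response element, and their products block viral replication or amplify the response. The genes below are a choice among those highest in UCI-191 EV replicate 2. Irf7, Ifitm3 and Psmb8 were also highest there and are not shown, so the matches below do not stand for all such genes. Each gene is given with the 250 bases before its start (RefSeq, GRCm38.p6, strand of the gene). Capitals mark matches to the core GAAANNGAAA, searched on both strands. In Rsad2 and Slfn8 the match is on the other strand and reads as the reverse complement. The windows lie on the minus strand at chr12:26456453-26456702 (Rsad2), chr5:120887614-120887863 (Oas1g), chr11:83020811-83021060 (Slfn8, first of 2 listed starts) and chr5:92348890-92349139 (Cxcl10).
Rsad2: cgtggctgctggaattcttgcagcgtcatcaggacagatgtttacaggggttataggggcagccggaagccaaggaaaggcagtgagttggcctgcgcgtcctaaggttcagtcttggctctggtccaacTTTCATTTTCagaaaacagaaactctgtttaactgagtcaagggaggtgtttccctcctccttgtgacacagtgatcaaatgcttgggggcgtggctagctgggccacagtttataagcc
Oas1g: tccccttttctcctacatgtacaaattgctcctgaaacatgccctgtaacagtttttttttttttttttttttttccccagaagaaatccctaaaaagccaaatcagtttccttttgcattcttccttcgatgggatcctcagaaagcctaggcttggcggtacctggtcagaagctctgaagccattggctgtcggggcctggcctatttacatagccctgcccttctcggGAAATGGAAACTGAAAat
Slfn8: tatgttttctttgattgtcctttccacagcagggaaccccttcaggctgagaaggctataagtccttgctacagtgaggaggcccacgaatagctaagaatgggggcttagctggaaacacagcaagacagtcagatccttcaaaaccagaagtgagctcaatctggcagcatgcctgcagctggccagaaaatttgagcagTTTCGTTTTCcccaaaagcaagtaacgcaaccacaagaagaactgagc
Cxcl10: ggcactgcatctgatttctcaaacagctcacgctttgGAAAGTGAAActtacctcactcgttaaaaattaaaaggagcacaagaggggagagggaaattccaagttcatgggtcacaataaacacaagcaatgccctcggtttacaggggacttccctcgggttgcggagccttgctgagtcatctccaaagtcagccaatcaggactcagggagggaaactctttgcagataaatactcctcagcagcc
The match begins 120 bases before the start in Rsad2, 48 in Slfn8 and 213 in Cxcl10, and Oas1g has 2 overlapping matches at 18 and 12 bases. Of the 21 list members with a window among the 23 measured, 8 held the core, beside 2.98% of all 32851 windows. A member counted when any of its windows matched, so the units of the shares differ.

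Irf7, the master regulator of type I interferon genes, measured 5.13, 7.42 and 5.78 with UCI-191 EV and 5.57, 5.01 and 5.58 with Shef6 EV. Replicate 2 stood above every other tumor-free sample, and the other UCI-191 EV samples lay within or near the Shef6 EV and RT-TMZ + Veh values (5.40 to 5.81). The difference of 0.72 ± 0.57 (SE, adjusted p = 0.584) rests on that sample. Rsad2, the antiviral enzyme viperin, measured 6.31, 8.09 and 6.53 against 6.58, 6.07 and 6.5, and Slfn8, a Schlafen family gene, 5.44, 6.82 and 5.62 against 5.01, 5.45 and 5.31. Zbp1, a sensor of Z-form nucleic acids, measured 4.28, 6.82 and 5.28 against 4.89, 5.01 and 4.78. Cxcl10, a chemokine that draws T cells, measured 4.47, 7.14 and 5.66 against 5.43, 5.35 and 5.28. For Zbp1 and Cxcl10 the direction turned without replicate 2, to -0.11 and -0.29, since replicate 1 was the lowest of the 6 samples in both. Oas1g, an oligoadenylate synthetase that senses double-stranded RNA, had values on both sides of background in each group.

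**Figure D4:**
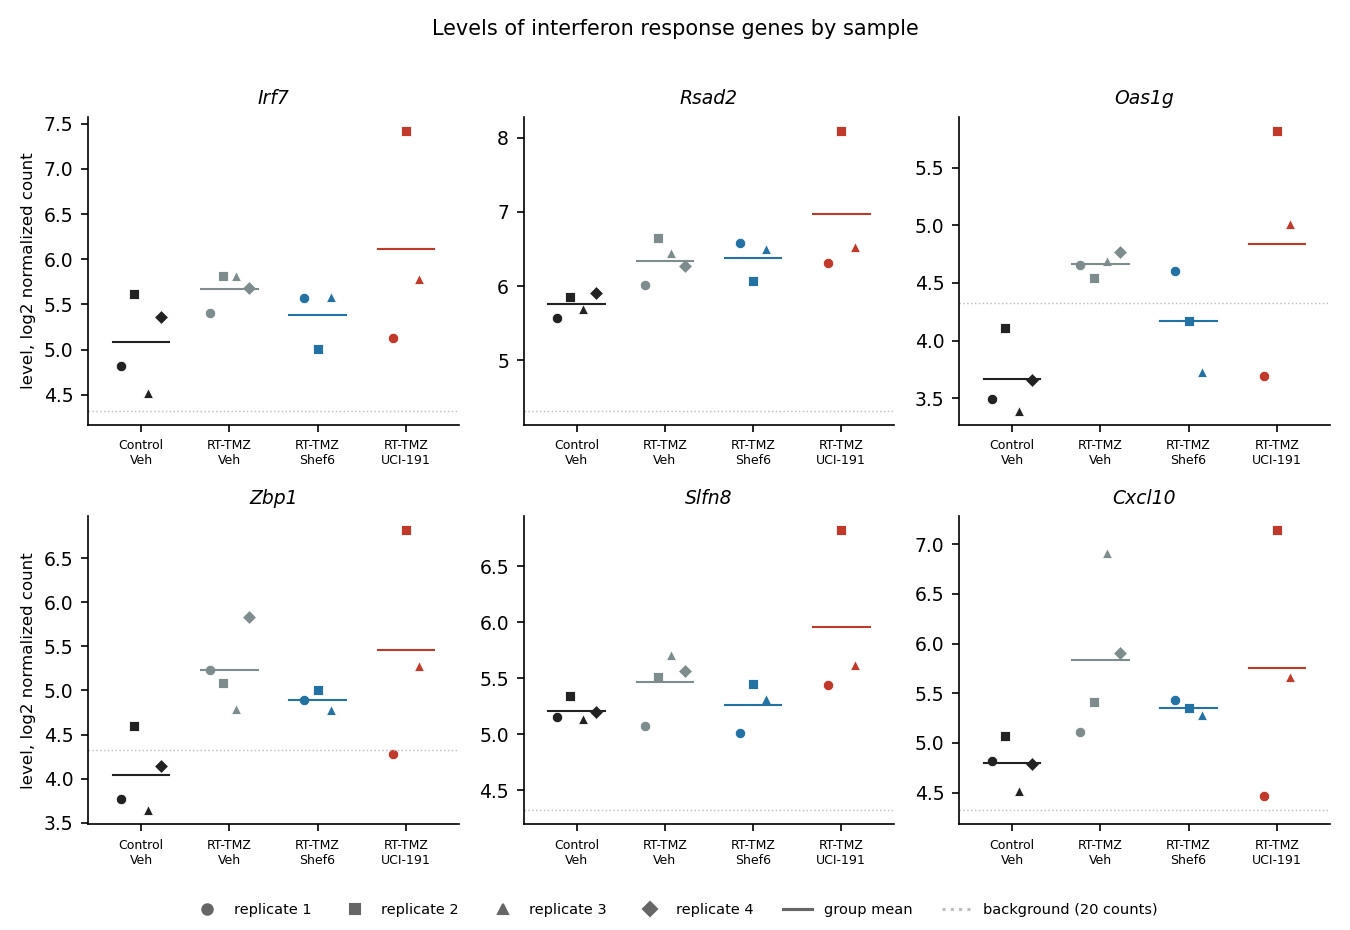
Level of 6 interferon response genes (log2 normalized count, y axis) in each sample of the tumor-free groups (x axis), with replicates as symbols, group means as lines and background dotted where in range. UCI-191 EV replicate 2 (red square) is the highest sample of every panel, at 7.42 for Irf7 and 8.09 for Rsad2.

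UCI-191 EV replicate 2 was also the highest sample in members with smaller gaps. Psmb8, a subunit of the immunoproteasome, measured 8.17, 8.79 and 8.25 with UCI-191 EV and 7.98, 7.91 and 8.13 with Shef6 EV, without overlap, and Ifitm3, a membrane protein that restricts virus entry, 10.41, 11.17 and 10.68 against 10.30, 10.17 and 10.44. Their differences were 0.40 and 0.45, and 0.20 and 0.24 without that replicate. Of 23 measured genes of the list, 20 were higher with UCI-191 EV and none passed. The median difference was 0.393, and without UCI-191 EV replicate 2 it was 0.193 with 17 of 23 higher, beside 60.2% of all genes. Cxcl10 and Psmb8 are also on the reactive astrocyte list.

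Vascular genes were mixed. Cldn5, the tight junction protein of brain endothelium, was 0.30 higher with UCI-191 EV, Tie1, an endothelial receptor kinase, 0.27 higher and Lsr, a protein of tricellular junctions, 0.31 higher, while the adhesion molecule Icam2 was at -0.23, and none of the 4 overlapped or passed. Fbln5, an elastic fiber protein, measured 7.87, 8.02 and 8.23 against 7.46, 7.14 and 7.69, a difference of 0.61 ± 0.17 (SE, adjusted p = 0.443). Of 20 measured vascular genes, 12 were higher, beside 62.1% of all genes, and 30% did not overlap in either direction, beside 14.9%. The median difference was 0.090, or -0.043 with each sample centred on its median. Of the antioxidant genes, Nfe2l2, which encodes the regulator NRF2, was 0.28 higher and its target Nqo1 0.55 higher, at 8.10 to 8.58 against 7.46 to 8.25. Dlx1 and Dlx2, homeobox genes of interneurons, were at 0.35 and 0.28, in groups that overlapped.

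Genes that the study names for these groups were in part too low to compare. Gzmb, Gzma and Fasl, which encode effectors of cytotoxic lymphocytes, and Pilrb1 and Cxcl9 lay under background in all 6 samples, and Cst7 reached 4.36 at most. No direction was read for them. Slamf8, a SLAM family receptor, lay under background in the UCI-191 EV samples (3.67 to 4.21) and at 4.32 to 4.73 with Shef6 EV. Ccl7, a monocyte chemokine, measured 4.64, 5.33 and 5.12 with UCI-191 EV against 4.54, 4.25 and 4.42. Mapk12, a p38 kinase, was at -0.30 in overlapping groups, and Il15ra, a chain of the interleukin-15 receptor, at -0.12. Cd6, a T cell surface receptor, measured 5.34, 5.60 and 3.84 with Shef6 EV and 3.41 to 4.34 with UCI-191 EV. It thus had the layout of Fos and Mef2c in samples whose Cd3 genes were under background. Its difference was -1.09 (adjusted p = 0.451), and -1.64 without Shef6 EV replicate 3 (adjusted p = 0.0147), measured in part below background.

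The remaining lists had median differences between -0.063 and 0.188. The higher ones were 0.188 for Fc receptor and immune receptor signaling genes, 0.167 for cytokines and chemokines, 0.160 for monocyte, macrophage and neutrophil genes, 0.157 for the 4 interneuron genes and 0.102 for antioxidant genes. Astrocyte identity genes had 0.062, toll-like receptor and NF-kB genes 0.058, T and NK cell genes 0.030, ribosomal and mitochondrial genes 0.027, and p53 target and DNA damage genes 0.022. PI3K, Akt and MAP kinase genes and chromatin regulators both had 0.013, proliferation genes 0.008 and B cell and mast cell genes 0.007. Lower medians were -0.017 for oligodendrocyte and myelin genes and for BCL2 family and caspase genes, -0.033 for calcium and kinase signaling genes and -0.063 for autophagy genes. No member of any list passed.

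The same contrast was measured in other mice that carried CT2A tumors, and there it ran in the opposite direction for many of these genes. With tumor, 50 genes (6.61%) passed, 31 higher (4.10%) and 19 lower (2.51%) with UCI-191 EV, against 55 and 18 with each sample centred on its median and 23 and 33 with samples scaled to one total. Mef2c measured 13.71, 13.91 and 14 with UCI-191 EV and 12.04, 12.07 and 12.09 with Shef6 EV, a difference of 1.81 (adjusted p = 7.33e-05). Tbr1 differed by 1.28 (adjusted p = 0.00353), Cd6 by 1.61 (adjusted p = 0.0392) and E2f1 by 1.2 (adjusted p = 0.00993) in the same mice. Fos measured 8.40, 10.97 and 9.62 with UCI-191 EV and 7.20, 7.42 and 7.37 with Shef6 EV, a difference of 2.33 (adjusted p = 0.0612). On the other side, C4a differed by -0.90 (adjusted p = 0.0360), Vim by -0.68 (adjusted p = 0.0336) and Plcg2 by -0.63 (adjusted p = 0.0331).

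The difference between these 2 contrasts was tested directly as an interaction. It passed in 115 of 757 genes (15.2%), 53 higher (7%) and 62 lower (8.19%) with tumor, and in 114 of the 115 the 2 contrasts had opposite signs. The interaction is the difference of the 2 contrasts, so choosing genes by it favors opposite signs, and this count is no separate evidence. The split by direction became 132 higher and 21 lower with each sample centred on its median and 40 and 98 with samples scaled to one total. The largest values among the genes described above were Fos at 4.02 ± 1.21 (SE, adjusted p = 0.0481), Mef2c at 3.17 ± 0.69 (SE, adjusted p = 0.0292) and Eomes at -3.03 ± 0.90 (SE, adjusted p = 0.0475). The count rested on few samples. It was 0 without any single UCI-191 EV replicate of the tumor-free mice or without tumor-free Shef6 EV replicate 2, 9 without replicate 1 and 205 without replicate 3. It was also 0 without replicate 3 of the CT2A UCI-191 EV mice or replicate 2 of the CT2A Shef6 EV mice, 57 without replicate 2 of the former, and 34 and 21 without replicates 1 and 3 of the latter. Across the 757 genes the 2 contrasts correlated at r = -0.64 (Pearson, a description across genes, which are not independent, of groups that share no sample). Of the 103 genes that passed in tumor-free mice without Shef6 EV replicate 3, 33 also passed with tumor, beside 6.61% of all genes. All 33 lay in the opposite direction. Those 103 genes passed only with a sample left out that was picked from these same values. Their overlap therefore describes the layout and is no separate evidence.

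**Figure D5:**
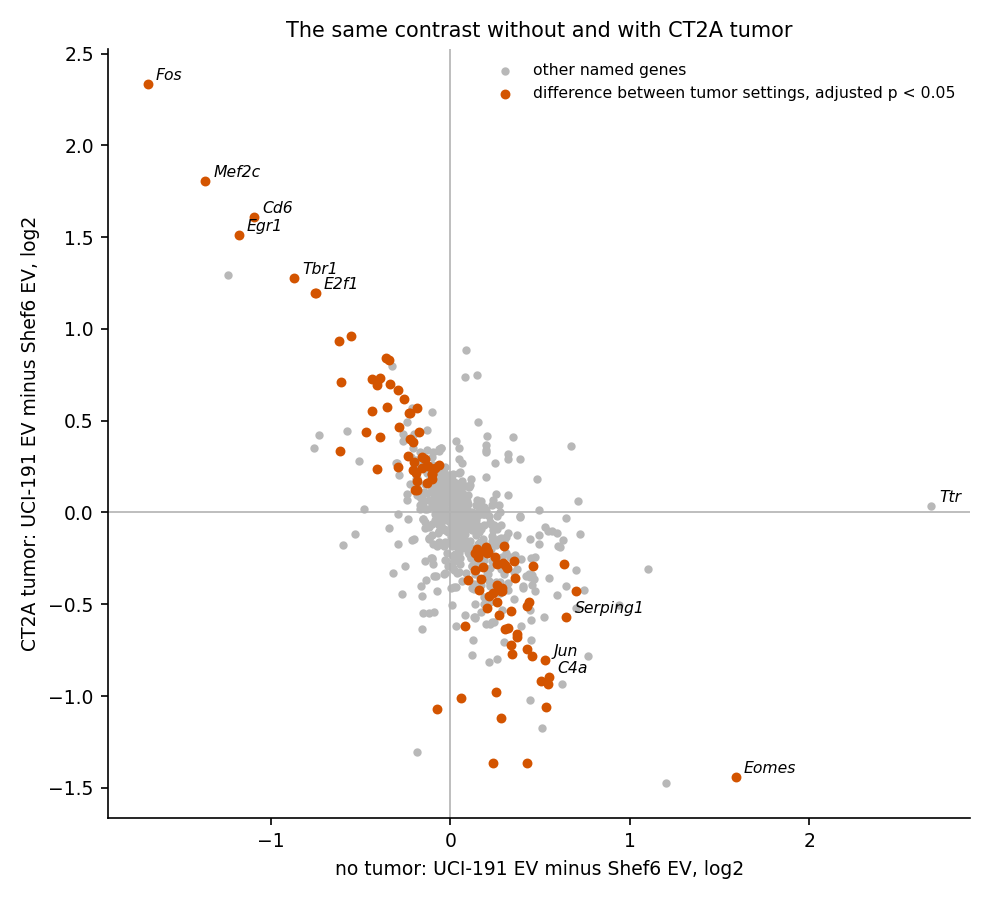
UCI-191 EV minus Shef6 EV (log2) for each named gene in tumor-free mice (x axis) and in CT2A-bearing mice (y axis), with genes whose contrast differed between the 2 settings at an adjusted p under 0.05 in orange. Fos, Mef2c, Egr1 and Tbr1 lie at the upper left and Eomes at the lower right.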

How the data were processed

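RNA of brain tissue from 24 male mice was hybridized to a panel of barcoded probes, and the authors normalized the raw counts in the nCounter software to positive controls and then to 13 reference genes. The deposited values are log2 normalized counts of 757 probes. In the tumor-free samples, low values above each sample's lowest were whole multiples of 1 factor per sample (100% within 0.15 of a whole number). This gave the implied totals, and these bound the precision. The CT2A samples were not checked in this way. The genes at a sample's lowest value have no order. Groups were taken from the labels, and each of the 6 samples was treated as 1 replicate. The design gives 1 sample per mouse, so p-values measure the spread between mice and their dissections.

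Differences came from limma 3.58.1 (R 4.3.3), a moderated test with trend fitted to the 2 groups alone, with Benjamini-Hochberg adjustment over 757 probes and a threshold of 0.05, and the interaction was fitted over the 12 samples of the 4 EV groups. The fits were tested on simulated data. Tables, exact tests and figures were made in Python 3.11.15 (numpy 2.4.6, pandas 2.3.3, scipy 1.17.1, matplotlib 3.10.9). Of the probes, 703 matched a RefSeq gene, and promoter windows came from RefSeq (GRCm38.p6).

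Named genes were the 10 with the smallest p, the largest without overlap, up to 4 per list by p, those the study names, Ttr, Mef2c, the widest ranges and the 5 smallest interaction p values, all above 20 normalized counts in at least 1 group unless the study names them. The members and lists were chosen with earlier results of these data known. Alternatives were median centring, a common total, quantile normalization, genes above background alone, a pseudocount of 20, no trend, the methods' t-test, all 7 groups in 1 fit, the replicate numbers as a block and each sample left out.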

Additional observations from a re-analysis of the deposited data

Results flagged for a closer look

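The UCI-191 minus Shef6 difference was not the same in CT2A-bearing and tumor-free mice for 115 of 757 genes (interaction term, limma, adjusted p under 0.05), and for 31 of the 70 genes given with a difference in the text, which were chosen in part for a small interaction p or a large difference in this contrast, so that this share describes the choice. The interaction on the log2 scale (with tumor minus without) was positive for Fos 4.02, Mef2c 3.17, Cd6 2.70, Egr1 2.69, Tbr1 2.15, E2f1 1.95, Camk4 1.55, Homer1 1.32, Clstn1 1.16, Lingo1 0.99, Cx3cl1 0.93 and Nrgn 0.64. These 12 genes were lower with UCI-191 EV in tumor-free mice and higher with it in CT2A-bearing mice. It was negative for Eomes -3.03, C4a -1.45, Lilrb4a -1.42, Jun -1.33, Serping1 -1.22, Vim -1.05, Osmr -1.03, Plcg2 -0.95, Ptger4 -0.92, Mpeg1 -0.83, Slamf9 -0.75, Ctss -0.72, Pros1 -0.62, Sox9 -0.59, Tyrobp -0.54, Csf1r -0.49, Cldn5 -0.48, C1qa -0.48 and C1qc -0.38. These 19 genes were higher with UCI-191 EV in tumor-free mice and lower with it in CT2A-bearing mice. The count of 115 fell to 0 without any 1 of 6 of the 12 samples.

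In the groups of 4, 5 of 140 tested sets of values had 1 sample far from the other 3 (gap to the nearest sample over the whole range), and chance alone marks about 1 in 20. They were Ptger4 in RT-TMZ + Veh (0.879, a sample at 4.20), Ccl4 in RT-TMZ + Veh (0.873, at 5.03), Gja1 in RT-TMZ + Veh (0.857, at 12.80), C4a in Control + Veh (0.907, at 9.98) and Ccl7 in Control + Veh (0.848, at 4.44). Only RT-TMZ + Veh and Control + Veh were screened in this way, so no sample of an EV group could be marked.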

How the results depend on the processing

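The count of 0 genes between the EV groups held under every alternative except the methods' t-test, which gave 1 (Pros1), and the single samples left out gave 0 to 103, the 103 without RT-TMZ + Shef6 EV replicate 3. The replicate block also gave 0. Deviations of same-numbered samples correlated at -0.30, -0.07 and -0.13 in tumor-free mice and at 0.12, 0.12 and -0.06 in CT2A-bearing mice. With 3 samples a group, these few values cannot settle whether the replicate numbers pair the samples. The interaction count of 115 was 73 with all 7 groups in 1 fit, 69 without the trend, 0 with the replicate block, 0 with the methods' t-test (185 unadjusted) and 0 to 205 with single samples left out. The CT2A count of 50 was 31 with quantile normalization, 25 with all 7 groups in 1 fit, 25 without the trend, 11 with the replicate block, 1 with the methods' t-test and 10 to 64 with single samples left out. The difference of the sample medians lay between 0.080 and 0.165 with single samples left out. Of the 70 genes given with a difference, 2 turned direction, Zbp1 (-0.113 to 1.157 with single samples left out) and Cxcl10 (-0.288 to 1.047), both without RT-TMZ + UCI-191 EV replicate 2. Without RT-TMZ + Shef6 EV replicate 3, 37 of the 70 passed, beside 13.6% of all genes. The 70 were chosen in part by p, separation and range in these same samples, so their share describes the choice.

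List medians relative to that of all genes moved by over 1 SD between replicates in 9 of 27 lists. With quantile normalization they became -0.014 for synapse genes, -0.002 for calcium and kinase signaling genes, 0.052 for Fc receptor genes, -0.047 for endothelial genes, -0.076 for p53 target genes, -0.006 for BCL2 family genes, 0.028 for ribosomal and mitochondrial genes and 0.015 for PI3K, Akt and MAP kinase genes, the last of which was -0.052 with genes above background alone. With single samples left out the ranges were -0.180 to -0.097 for synapse genes, -0.117 to -0.072 for calcium genes, 0.053 to 0.170 for cytokine genes, -0.007 to 0.049 for endothelial genes, -0.082 to -0.009 for p53 target genes, -0.075 to -0.025 for BCL2 family genes and -0.067 to -0.002 for PI3K genes. The causes were not tested. Genes near 20 normalized counts, such as Trpa1, Ptger4, Oas1g and Slamf8, are limited by depth.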
